A study of Mus musculus with 4 samples.

Results

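Tumour-infiltrating CD8 T cells whose receptor beta chain used the V segment Trbv29 were compared with tumour CD8 T cells using any other Trbv segment. A cell entered when exactly 1 of the 22 Trbv columns of the table held a value above 0. Of the 4028 cells in the tumour libraries, 2192 met this rule, and 257 of them used Trbv29 while 1935 used another segment. The Trbv29 cells numbered 61 in the CD137 minus library and 196 in the CD137 plus library, beside 637 and 1298 cells of other segments. The whole table held 6965 cells. The cells were thus chosen by their measured Trbv values, so Trbv29 itself is described only. Comparisons use genes other than receptor segments, or alpha chain segments, which the rule did not use. Receptor constant regions enter only as cell type markers or as described shares.

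The cells came from mixed bone marrow chimeras, in which lethally irradiated C57BL/6 recipients received marrow of a Cd4cre Cd137fl/fl ROSA26tomato donor and of a Cd137fl/fl ROSA26tomato donor without Cre. Cd4cre drives recombination in T cells, so the first donor's T cells lose CD137 (4-1BB), a costimulatory receptor encoded by Tnfrsf9, while the loxP-flanked gene stays intact in the other donor's cells. The labels do not say which exons the loxP sites flank. Recipients carried subcutaneous B16K1 melanoma, and CD8 T cells were taken 21 days after inoculation, with both fractions from the same mice. Cells of 7 mice were pooled into 1 library for each fraction and tissue, and the table names no mouse for a cell. For the tomato reporter the sorting protocol and the source names contradict each other, so cells were grouped by the labelled CD137 status. Loss of CD137, Cre and the donor cannot be told apart.

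A T cell recognises peptide on MHC molecules through a receptor made of an alpha and a beta chain. Each chain joins a V segment to other segments in the thymus, and all descendants of a cell inherit its joined chains, so cells that share a V segment may belong to 1 clone or to many. T cells that meet antigen in tumours for long periods can become exhausted, with inhibitory receptors such as PD-1 and TIM-3 and the transcription factor Tox, whereas cells that have not met antigen keep Ccr7 and Lef1. The table holds no junction sequence, so V segments show which pairs of chains occurred together but not whether cells were of 1 clone.

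The V exons of 3 segments carry the results, Trbv29 as the segment that defines the cells and Trav8-1 and Trav6-4 as the alpha segments most frequent among Trbv29 cells of the plus library with exactly 1 Trav value. They are given from GENCODE M21 on GRCm38, all on the plus strand, with capitals marking the 3′ germline bases from the conserved cysteine codon, where the antigen-contacting CDR3 loop begins.
Trbv29: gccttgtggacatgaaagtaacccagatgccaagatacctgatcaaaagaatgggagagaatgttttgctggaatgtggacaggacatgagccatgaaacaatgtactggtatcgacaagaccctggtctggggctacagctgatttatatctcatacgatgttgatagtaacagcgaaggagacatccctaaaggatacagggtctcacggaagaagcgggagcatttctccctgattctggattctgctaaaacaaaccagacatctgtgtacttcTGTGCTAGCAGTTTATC
Trav8-1: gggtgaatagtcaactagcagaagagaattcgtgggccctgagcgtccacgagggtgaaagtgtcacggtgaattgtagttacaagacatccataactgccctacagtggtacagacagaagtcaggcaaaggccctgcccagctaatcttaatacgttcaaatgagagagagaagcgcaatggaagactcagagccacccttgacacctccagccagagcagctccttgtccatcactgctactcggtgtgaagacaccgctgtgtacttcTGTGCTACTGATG
Trav6-4: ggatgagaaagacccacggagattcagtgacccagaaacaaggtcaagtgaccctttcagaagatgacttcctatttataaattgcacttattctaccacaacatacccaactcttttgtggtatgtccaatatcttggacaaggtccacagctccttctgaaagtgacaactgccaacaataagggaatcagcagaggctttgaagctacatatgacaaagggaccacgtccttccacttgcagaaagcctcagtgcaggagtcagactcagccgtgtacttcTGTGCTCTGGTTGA

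The Trbv29 exon (ENSMUSG00000076480.2) spans chr6:41271587-41271881 and ends with 17 bases in capitals. The Trav8-1 exon (ENSMUSG00000076831.3) spans chr14:53469948-53470232, and the Trav6-4 exon (ENSMUSG00000094468.5) spans chr14:53454487-53454784. Over the V exon Trbv29 was 69.0% identical to its closest relative among the segments in the table, Trbv13-2. Trav8-1 was 98.9% identical to Trav8d-1, and Trav6-4 was 97.7% identical to Trav6d-4, so reads of these alpha segments may be divided between copies.

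Trbv29 was the most frequent beta segment of the plus library, with 196 of 1494 cells, or 13.1% (exact 95% interval 11.4 to 14.9), followed by Trbv12-1 at 12.9%, whose interval overlapped. In the minus library it had rank 4 of 22, with 61 of 698 cells, or 8.74% (6.75 to 11.1). The spleen, which the rule did not use, had lower shares, 83 of 1286 cells or 6.45% (5.17 to 7.94) in the minus fraction and 13 of 269 cells or 4.83% (2.60 to 8.12) in the plus fraction. The intervals of the tumour libraries adjoined at 11.1% and 11.4% without overlap. All intervals cover counting error only, and with 1 library per group no difference has a replicate error or a test.

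**Figure D1:**
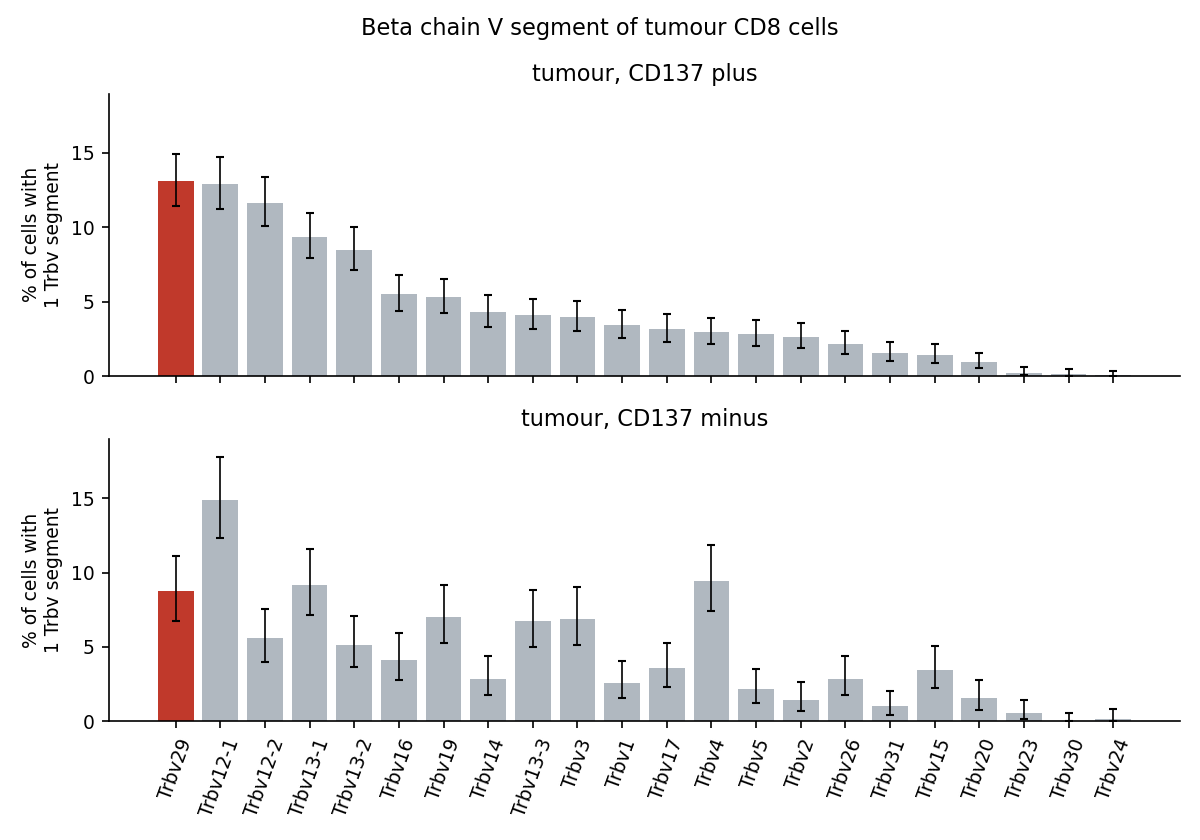
Share of each Trbv segment among cells with 1 Trbv segment (y axis, percent) in the plus library (top) and the minus library (bottom), with segments ordered by their share in the plus library and error bars giving exact 95% intervals. Trbv29, in red, stands at 13.1% in the plus library and at 8.74% in the minus library.

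Another 54 cells of the minus library and 178 cells of the plus library held Trbv29 together with another Trbv value and were left out by the rule. Trbv29 was the highest segment in 24 and 80 of them. Just inside the rule lay 2 and 9 cells with a single count of Trbv29, and the median count was 9 in the minus and 5 in the plus library. The median total of corrected counts per cell was 4747 for Trbv29 against 4871 for other cells in the minus library, and 3634 against 3760.5 in the plus library. These counts are read as already corrected for depth, so their totals cannot show whether the 2 sides were alike in raw depth. Cd8b1, the beta chain of CD8, had a value in 61 of 61 and 195 of 196 Trbv29 cells. All 8 CD8 T cell markers were detected, with summed levels of 6465 and 7793 CPM (corrected counts per 1000000 non-receptor counts). These markers include the receptor constant regions Trac, Trbc1 and Trbc2. Detection of Trbc1 and Trbc2 is not independent of the rule, which asked for a Trbv value. Cd4 was at 0 in the Trbv29 cells of both libraries, as were Trdc of gamma delta T cells, Cd79a of B cells, and Tyrp1 and Mitf of melanoma cells. Cd79a was at 0 in the other cells of the minus library too. Further markers of these types were detected in Trbv29 cells of the minus and plus libraries. They were 2 and 3 of 4 for CD4 and regulatory T cells, 2 and 3 of 4 for gamma delta T cells, 4 and 4 of 6 for B cells, and 3 and 5 of 7 for melanoma cells. Markers of melanoma cells summed to 31.2 against 15.4 CPM in the minus library and 38.6 against 39.0 CPM in the plus library, those of B cells to 187 against 232 and 234 against 410 CPM, and those of NK cells to 167 against 137 and 157 against 236 CPM. Those of macrophages and monocytes summed to 128 against 155 and 207 against 204 CPM, and those of dendritic cells to 128 against 179 and 177 against 252 CPM. The part of such cells in the results was not tested.

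In the plus library Trav8-1 and Trav6-4 were frequent among the Trbv29 cells. Trav8-1 had a value in 60 of 196 Trbv29 cells, or 30.6% (24.2 to 37.6), against 12 of 1298 cells of other segments, or 0.924% (0.479 to 1.61). Trav6-4 had a value in 31 of 196 Trbv29 cells, or 15.8% (11.0 to 21.7), against 7 of 1298, or 0.539% (0.217 to 1.11). No cell held both, which at 3 counts of the 196 cells allows a share of up to 1.53% (exact upper limit 1.86%). Among the 92 Trbv29 cells with exactly 1 Trav value, 27 used Trav8-1, or 29.3% (20.3 to 39.8), and 20 used Trav6-4, or 21.7% (13.8 to 31.6). The rest used other segments, led by Trav16n in 7 and Trav14-1 in 6 cells. How broad the set of alpha chains was on either side was not measured.

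The pairing held in the reverse direction as well. Of the 72 cells of the plus library with Trav8-1 and a single Trbv segment, 60 used Trbv29, or 83.3% (72.7 to 91.1). Of the 38 such cells with Trav6-4, 31 used Trbv29, or 81.6% (65.7 to 92.3). Trav9-4 had a value in 32 of 196 Trbv29 cells, or 16.3% (11.4 to 22.3), but was the only Trav value in 2 of them. A further 18 cells with Trav8-1 and 8 cells with Trav6-4 held Trbv29 among several Trbv values. Trav9-4 had a value in 29 of the 60 Trav8-1 cells and Trav3-3 in 9, and Trav10 had a value in 9 of the 31 Trav6-4 cells.

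Both alpha chains were less frequent beside Trbv29 in the other libraries. In the minus library 4 of 61 Trbv29 cells held Trav8-1, or 6.56% (1.82 to 15.9), against 6 of 637 other cells, or 0.942% (0.346 to 2.04), and 4 of the 10 cells with Trav8-1 and a single Trbv segment used Trbv29. Of the same 61 cells none held Trav6-4, which at 3 counts of 61 allows a share of up to 4.92% (exact upper limit 5.87%). In the spleen none of 83 Trbv29 cells of the minus fraction and none of 13 of the plus fraction held Trav8-1, and 1 cell held Trav6-4. Frequent alpha chains occurred beside other beta segments too. Of the 174 Trbv12-2 cells of the plus library, 94 held Trav3-3, or 54.0% (46.3 to 61.6), whereas the leading alpha chain of Trbv12-1 cells reached 15.5% (10.7 to 21.4) and that of Trbv13-1 cells 7.14% (3.48 to 12.7).

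**Figure D2:**
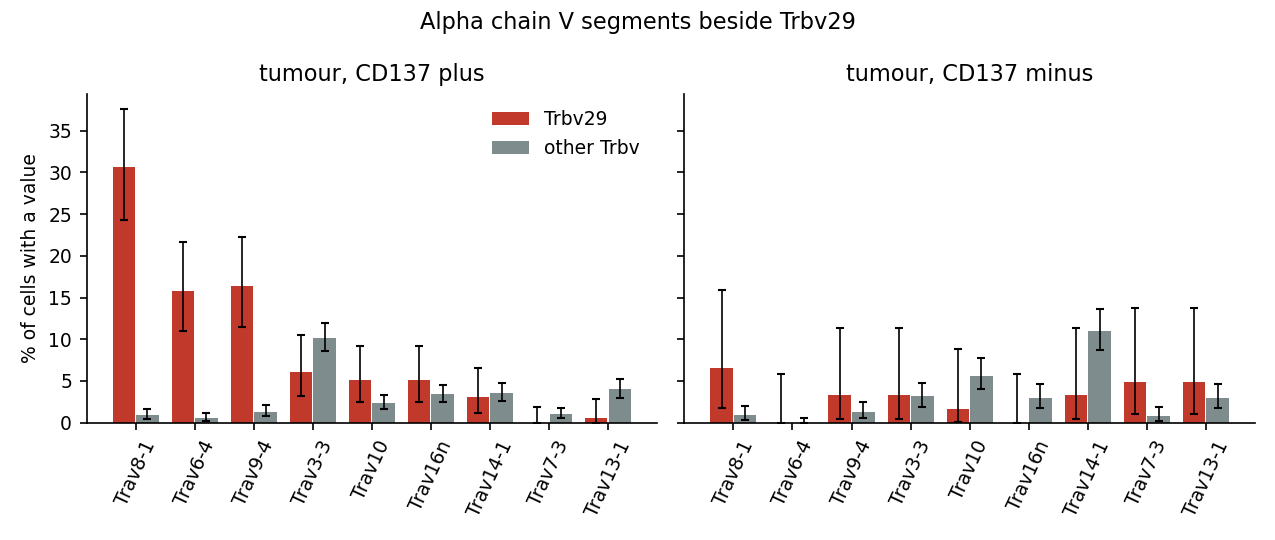
Share of cells with a value for each of 9 Trav segments (y axis, percent) among Trbv29 cells (red) and cells of other Trbv segments (grey), in the plus library (left) and the minus library (right), with exact 95% intervals. Trav8-1 and Trav6-4 reach 30.6% and 15.8% of the Trbv29 cells of the plus library and stay under 1% of its other cells.

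Transcript levels of genes other than receptor segments were then compared within each library. Measured genes reached 20 CPM and 5% of cells on either side and were above 0 on both. A gene was counted as higher or lower at a log2 ratio of 0.5 or more in size, with a pseudocount of 1 CPM. In the minus library 1126 of 5491 genes were higher in Trbv29 cells (20.5%) and 672 were lower (12.2%). In the plus library 417 of 5546 genes were higher (7.52%) and 321 were lower (5.79%). Counts of this order were found for the segments most frequent beside Trbv29. In the plus library 9.96% of genes were higher and 3.68% lower in Trbv12-1 cells, 8.68% and 6.14% in Trbv12-2 cells, and 5.33% and 12.2% in Trbv13-1 cells. Shares in the minus library were 17.1% and 5.55%, 15.1% and 29.4%, and 11.2% and 21.6% in the same order. These groups hold between 39 and 193 cells, and the part of the cell number in the shares was not tested.

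The libraries shared little of the difference. Of 5082 genes measured in both, 79 were higher in Trbv29 cells in each library (1.55%) and 53 were lower in each (1.04%). Across these genes the log2 ratios of the libraries had a correlation of 0.01, a description over genes, which are not independent replicates.

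The 12 genes named in each direction stood mostly near the 20 CPM minimum. Furthest above were Top3b, a topoisomerase, at 27.8 against 11.5 CPM in the minus library (log2 ratio 1.21) and 31.7 against 13.7 CPM in the plus library (1.16), and Serpine2, a secreted protease inhibitor, at 66.0 against 22.9 CPM (1.48) and 84.1 against 38.0 CPM (1.13). Il12rb2, the signalling chain of the IL-12 receptor, stood at 52.1 against 10.8 CPM (2.17) and 26.2 against 13.3 CPM (0.93). Pds5b, a cohesin regulator, stood at 72.9 against 22.0 CPM (1.69) and 48.3 against 23.8 CPM (0.99). The other 8 of the 12 highest were Foxd2os, Mon2, Mxi1, Ibtk, Cse1l, Mctp2, Skiv2l and Ptrhd1, with Trbv29 levels between 20.8 and 44.1 CPM. A low gene could pass the minimum through its higher side alone, so the number that passed supports nothing.

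Furthest below was Ccl1, a chemokine ligand of CCR8, at 41.7 against 87.8 CPM in the minus library (-1.06) and 23.4 against 128 CPM in the plus library (-2.39). It had a value in few cells, 3.28% against 5.81% and 5.10% against 7.63%. Slamf6, a surface marker of progenitor exhausted cells, stood at 20.8 against 37.7 CPM (-0.83) and 19.3 against 35.5 CPM (-0.84). Irf3, a transcription factor of the type I interferon response, stood at 13.9 against 26.2 CPM (-0.87) and 15.2 against 31.1 CPM (-0.99). Eef1e1 stood at 17.4 against 47.9 CPM (-1.41) and 30.3 against 50.6 CPM (-0.72). Others among the 12 lowest were Hist1h3e, Ssbp2, Tnrc6c, Rabgap1, Mical1, Zmiz2 and Zbtb25.

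Gene lists are described by counts and medians, each to be read against the share of all genes past the limit given above. Of 9 measured progenitor exhausted-like genes in the plus library, 4 were lower and none higher, with a median log2 ratio of -0.48 against 0.04 over all genes. Of 10 such genes in the minus library 4 were lower and none higher, with a median of -0.29 against 0.10 over all genes. Xcl1, a chemokine that attracts cross-presenting dendritic cells, stood at 336 against 715 CPM in the plus library (-1.08) and 368 against 574 CPM in the minus library (-0.64). Id3, a transcription factor of memory and progenitor cells, stood at 59.3 against 83.2 CPM (-0.48) and 83.3 against 142 CPM (-0.76). Other members of the list leaned upward, all under the limit. In the plus library these were Ikzf2 (0.49), Cd200 (0.46) and Itgb1 (0.20), and in the minus library Traf1 (0.28), Itgb1 (0.26) and Pou2f2 (0.12).

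Naive-like genes leaned the same way. In the plus library 3 of 11 were lower and none higher (median -0.41), and in the minus library 4 of 12 were lower and none higher (-0.20). Lef1, a transcription factor of naive cells, stood at 81.4 against 108 CPM in the plus library (-0.41) and 111 against 179 CPM in the minus library (-0.69).

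In the plus library a minority of exhaustion genes was past the limit, all upward. Of 13 terminally exhausted-like genes 4 were higher and none lower there (median 0.30), and of 11 inhibitory receptors 4 were higher and none lower (0.37). Lag3, an inhibitory receptor for MHC class II, stood at 506 against 343 CPM (0.56). Havcr2, which encodes TIM-3, stood at 69.0 against 46.9 CPM (0.55), and the chemokine receptor Cxcr6, just under the limit, stood at 430 against 304 CPM (0.50). Tnfrsf9 itself stood at 609.5 against 419 CPM (0.54), and Pdcd1, which encodes PD-1, was level at 523 against 515 CPM (0.02). In the minus library 3 of 11 terminally exhausted-like genes were higher and 1 lower (median 0.11), and 2 of 9 inhibitory receptors were lower and none higher (0.05).

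In the plus library the Trbv29 cells differed among themselves by alpha chain. The 196 Trbv29 cells were divided into 60 with Trav8-1, 31 with Trav6-4 and 105 with neither, a division chosen after values had been seen and therefore only described. The 105 include the 47 Trbv29 cells without any Trav value, so some of them may carry either chain undetected. Among genes measured against other cells, 36.2% were higher and 10.7% lower in Trav8-1 cells, and 33.0% and 17.6% in Trav6-4 cells. In the 105 cells with neither, 6.14% were higher and 25.3% lower. Median log2 ratios over all genes were 0.29, 0.19 and -0.15 in these groups.

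Cells of both pairings had low naive-like genes. Of those measured, 10 of 10 were lower in Trav8-1 cells (median -2.27) and 11 of 11 in Trav6-4 cells (-2.41). Klf2, a transcription factor that keeps T cells recirculating, stood at 109 CPM in Trav8-1 cells, 209 CPM in Trav6-4 cells, 1646 CPM in the Trbv29 cells with neither and 1117 CPM in cells of other segments. Lef1 stood at 8.4, 52.4, 137 and 108 CPM in the same order. The first 2 groups were far below the others in both genes.

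Terminally exhausted-like genes were the reverse, with 11 of 13 higher in Trav8-1 cells (median 0.80) and 11 of 14 higher and 1 lower in Trav6-4 cells (1.17). In the cells with neither chain 4 of 11 were lower and none higher (-0.41), beside 25.3% of all genes lower and an all-gene median of -0.15 in these cells. Pdcd1 had a value in 80.0% (67.7 to 89.2) of Trav8-1 cells and 90.3% (74.2 to 98.0) of Trav6-4 cells. It had a value in 32.4% (23.6 to 42.2) of the cells with neither and 54.9% (52.2 to 57.7) of other cells. Havcr2 had a value in 30%, 35.5%, 7.62% and 12.8% of the 4 groups. In cells with Lef1 and Ccr7 but no Pdcd1 value, a background group chosen after values had been seen that should lack Havcr2, the share was 1.90%.

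Tnfrsf9 had a value in 57 of 60 Trav8-1 cells, or 95% (86.1 to 99.0), and in 77.4% (58.9 to 90.4) of Trav6-4 cells. It had a value in 31.4% (22.7 to 41.2) of the cells with neither and 46.2% (43.5 to 49.0) of other cells. The share in cells with Lef1 and Ccr7 but no Pdcd1 was 10.3%, at a median total of 3905. After all cells were thinned to 2900 corrected counts the shares for Trav8-1 cells and other cells were 95% and 42.0%. Raw depth is unknown, so this thinning cannot adjust for it. Glycolytic genes were higher in 5 of 12 cases in Trav8-1 cells, near the 36.2% of all genes, and in 8 of 13 in Trav6-4 cells, beside 33.0% of all genes, with Tpi1, a triose phosphate isomerase, at 596 and 654 CPM against 282 CPM in other cells. Interferon-stimulated genes were lower in 7 of 10 cases and higher in none in Trav8-1 cells (median -0.69), and lower in 8 and higher in 1 of 10 in Trav6-4 cells (-0.86). In the cells with neither chain 4 of 11 were higher and none lower (0.28).

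**Figure D3:**
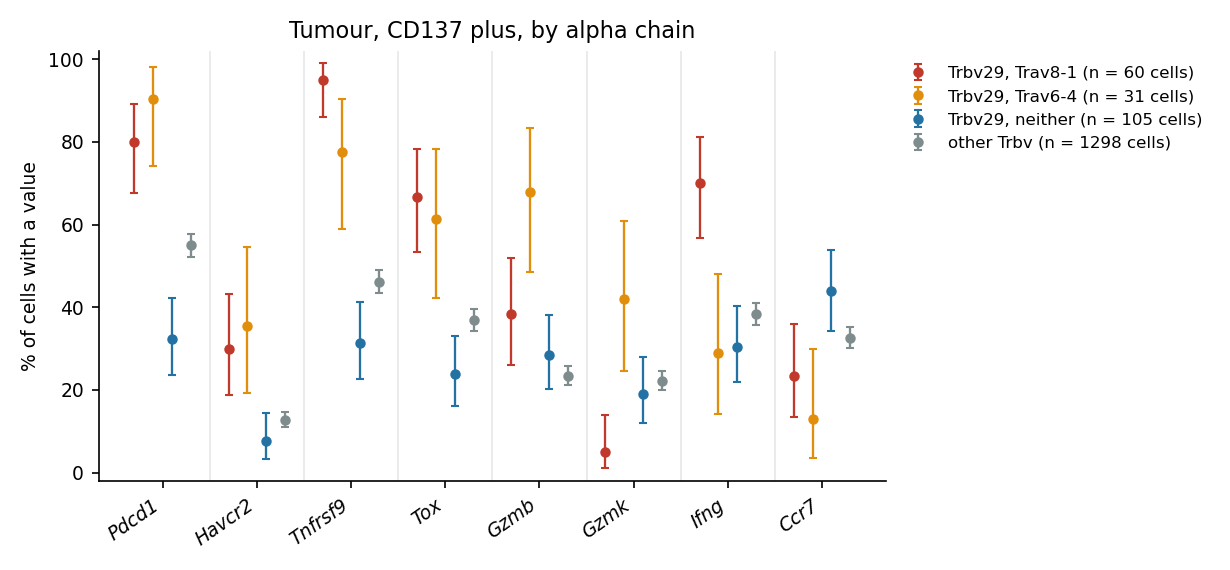
Share of cells with a value for 8 genes (y axis, percent) in the plus library, for Trbv29 cells with Trav8-1 (red), with Trav6-4 (orange) or with neither (blue) and for cells of other Trbv segments (grey), with exact 95% intervals. Pdcd1 and Tnfrsf9 lie at 77.4% or above in both pairings, while the Trbv29 cells with neither lie below the other cells at 32.4% and 31.4%.

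Beyond the lists, the genes with the largest shared ratio in both pairings were sought among those at 100 CPM or more, again after values had been seen. Higher in both were Impa2, an inositol monophosphatase, at 231 CPM in Trav8-1 cells, 175 CPM in Trav6-4 cells, 13.4 CPM in the cells with neither and 78.8 CPM in other cells. Cenpa, a centromeric histone, stood at 256, 401, 48.3 and 125 CPM in that order. Ikzf2, the transcription factor Helios and a member of the progenitor exhausted-like list, stood at 172, 166, 61.7 and 81.3 CPM. Of the 9 measured genes of that list, 2 were higher and 4 lower in Trav8-1 cells, and 2 were higher and 6 lower in Trav6-4 cells. Of all measured genes 36.2% and 33.0% were higher and 10.7% and 17.6% lower. Among the lower genes Itgb7, the integrin beta 7 chain, stood at 16.8, 17.5, 177 and 120 CPM, and Cd69, an early activation and retention receptor, at 168, 279, 1034 and 739 CPM. Apart from Ccl1 and Xcl1, which were lower in all 3 groups of Trbv29 cells than in other cells, the 15 lower genes stood near or above the level of other cells in the cells with neither chain.

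The pairings differed from each other in their effector genes. Trav8-1 cells had Spp1, the secreted phosphoprotein osteopontin, at 1210 CPM against 26.2 CPM in Trav6-4 cells, with a value in 40.0% (27.6 to 53.5) against 6.45% (0.791 to 21.4) of cells. Nrn1, neuritin, stood at 617 against 26.2 CPM, with a value in 75.0% (62.1 to 85.3) against 6.45% of cells. Ccl3, an inflammatory chemokine, stood at 1407 against 209 CPM, the chemokine receptor Ccr8 at 244 against 34.9 CPM, and Areg, an epidermal growth factor receptor ligand, at 391 against 61.1 CPM. Ifng, encoding interferon gamma, had a value in 70% (56.8 to 81.2) of Trav8-1 cells against 29.03% (14.2 to 48.0) of Trav6-4 cells.

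Granzymes differed in both directions. Gzmk, granzyme K, stood at 297 CPM against 12.6 CPM in Trav8-1 cells, with a value in 41.9% (24.5 to 60.9) against 5.00% (1.04 to 13.9) of cells. Gzmb, the apoptosis-inducing granzyme B, had a value in 67.7% (48.6 to 83.3) against 38.3% (26.1 to 51.8). The other way, Prf1, the pore-forming perforin, stood at 192 CPM in Trav6-4 cells against 529 CPM in Trav8-1 cells, and Gzmf stood at 0 against 286 CPM, with a value in 6.67% of Trav8-1 cells. Ly6c2, a surface protein of memory and effector CD8 cells, stood at 855 against 118 CPM, Cd7 at 148 against 16.8 CPM and the survival gene Bcl2 at 140 against 37.8 CPM. Trbc1, the first beta constant region, had a value in 68.3% of Trav8-1 cells and 9.68% of Trav6-4 cells, although Trbc1 and Trbc2 are nearly identical and reads may be divided between them.

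**Figure D4:**
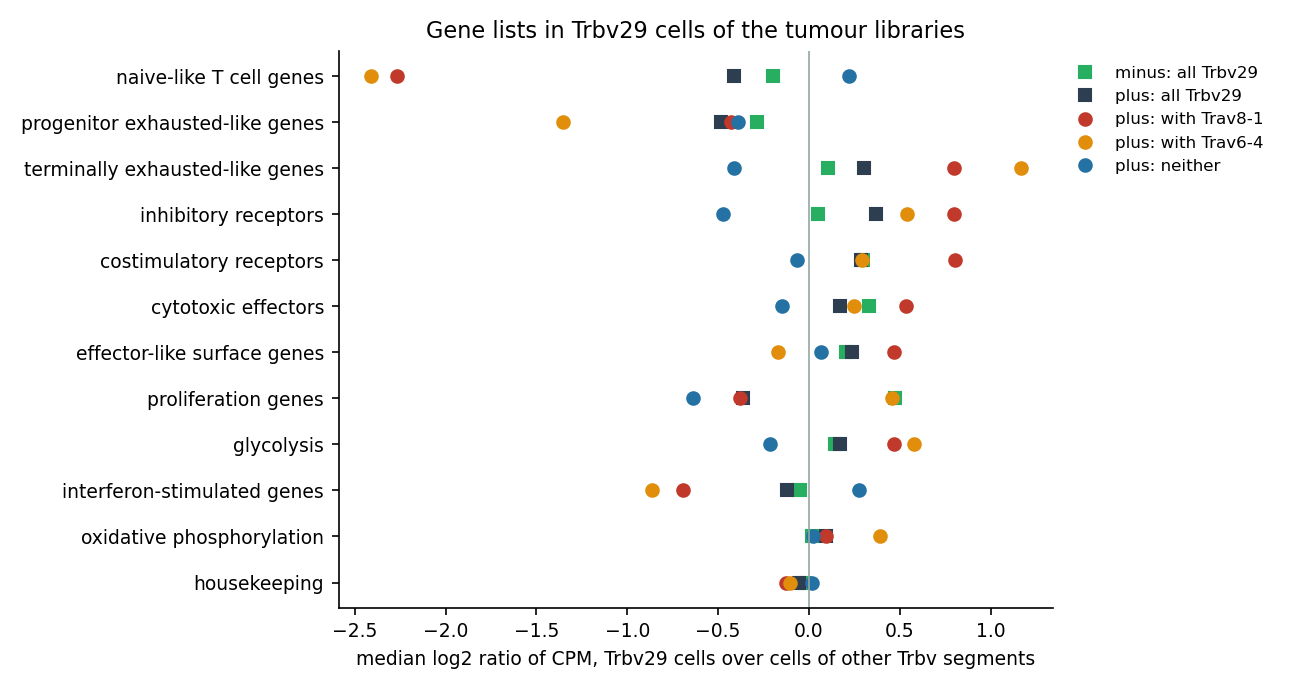
Median log2 ratio of CPM (x axis) of 12 gene lists in Trbv29 cells over cells of other Trbv segments, for all Trbv29 cells of each tumour library (squares) and for the 3 groups by alpha chain in the plus library (circles). The naive-like genes lie at -2.27 and -2.41 in the pairings and at 0.22 in the Trbv29 cells with neither.

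The minus library had few cells of these pairings, and its Trbv29 cells differed in other genes. Gzma, granzyme A, stood at 1097 CPM against 68.5 CPM in other cells (log2 ratio 3.98), with a value in 17 of 61 cells, or 27.9% (17.1 to 40.8), against 4.87% (3.33 to 6.84). One cell held 130 of the 316 Gzma counts, and without it the level was 658 CPM. Gzmk had a value in 34.4% (22.7 to 47.7) of Trbv29 cells against 11.8% (9.37 to 14.5), Gzmb in 29.5% (18.5 to 42.6) against 11.9% (9.52 to 14.7) and Klrg1, an inhibitory receptor of effector cells, in 13.1% (5.84 to 24.2) against 1.41% (0.648 to 2.67). In cells with Lef1 and Ccr7 but no Pdcd1 the shares were 2.53% for Gzma, 2.53% for Gzmk and 3.48% for Gzmb, at a median total of 4860.5. Klrg1 had a value in 0 of these 316 cells, which at 3 counts allows a share of up to 0.949% (exact upper limit 1.16%).

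Of the 17 Trbv29 cells with a Gzma value, 15 were cells without a detected alpha segment, a division again chosen after values had been seen. No Trav column held a value in 34 of 61 Trbv29 cells of the minus library, or 55.7% (42.4 to 68.5), against 29.04% (25.5 to 32.7) of other cells there and 24.0% (18.2 to 30.6) of Trbv29 cells in the plus library. Trac, the alpha constant region, had a value in 70.6% of these 34 cells and in 63.0% of the 27 Trbv29 cells with a Trav value, and Cd8b1 had a value in all 34. Gzma had a value in 15 of the 34 cells, or 44.1% (27.2 to 62.1), and in 2 of the 27, or 7.41% (0.910 to 24.3). Gzma and Gzmk were found together in 14 of the 34 cells, or 41.2% (24.6 to 59.3), against 2 of 185 cells of other segments without a Trav value, or 1.08% (0.131 to 3.85).

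Effector genes differed in whether they followed this division. Gzmb stood at 715 CPM in the 34 cells, 77.8 CPM in the 27 and 53.2 CPM in cells of other segments without a Trav value. Klrg1 stood at 69.0, 7.78 and 3.47 CPM in the same order, and Cx3cr1, a chemokine receptor of circulating effector cells, at 56.5, 15.6 and 11.6 CPM. In the 27 cells 5 counts of Gzma made up 38.9 CPM, so the levels of Klrg1 and Cx3cr1 rest on few counts. Ccl5, a chemokine of memory and effector CD8 cells, stood at 6015, 3360 and 3039 CPM. Prf1 stood at 81.5, 62.2 and 97.1 CPM, and was thus highest in the cells of other segments. Levels were closer together for the killer cell receptor chain Klrd1, at 433, 544 and 441 CPM, and for Ifng, at 157, 124 and 149 CPM. Tnfrsf9 was low in all 3, at 31.4, 38.9 and 41.6 CPM. With only cells that had a Trav value on both sides, the median of the cytotoxic effectors in the minus library moved from 0.33 to -0.26.

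**Figure D5:**
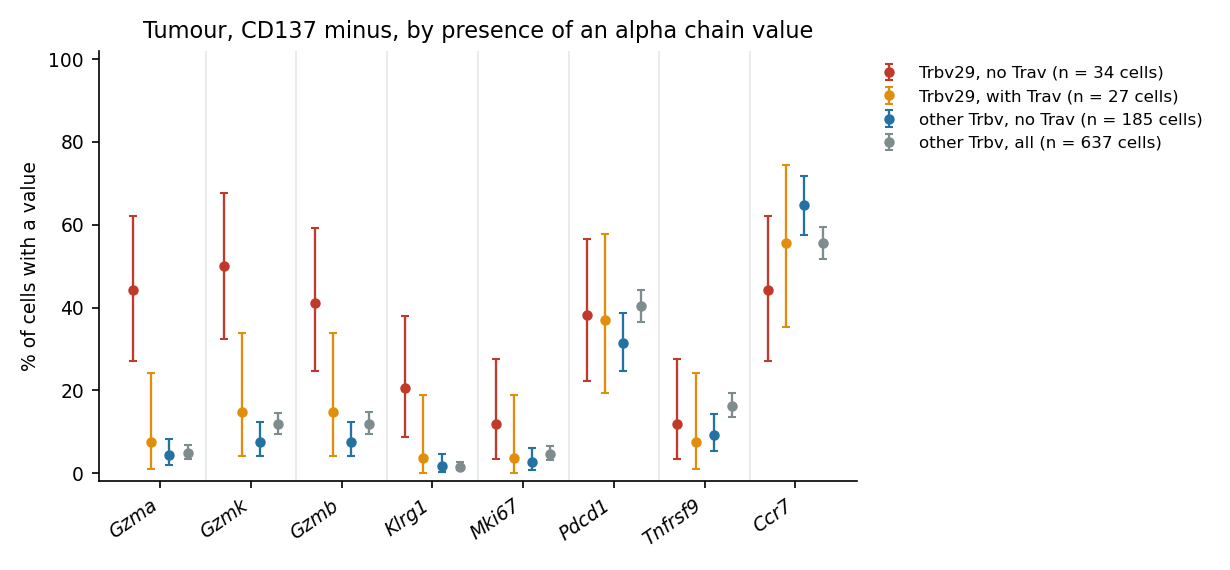
Share of cells with a value for 8 genes (y axis, percent) in the minus library, for Trbv29 cells without (red) and with (orange) a Trav value, cells of other Trbv segments without a Trav value (blue) and all cells of other segments (grey), with exact 95% intervals. Gzma and Gzmk lie at 44.1% and 50% in the Trbv29 cells without a Trav value.

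In the segments compared, naive-like genes had a median of -0.25 in Trbv12-1 cells, -0.15 in Trbv12-2 cells and 0.03 in Trbv13-1 cells of the plus library, beside -0.41 in Trbv29 cells. Terminally exhausted-like genes had medians of 0.05, 0.14 and -0.38, beside 0.30 in Trbv29 cells. Inhibitory receptors were at 0.37 in both Trbv12-1 and Trbv29 cells, with 3 of 11 and 4 of 11 higher, and at 0.16 and -0.22 in Trbv12-2 and Trbv13-1 cells. In the minus library their median was 0.46 in Trbv12-1 cells, with 4 of 11 higher, beside 0.05 in Trbv29 cells. Progenitor exhausted-like genes of the minus library had medians of 0.26, -0.59 and -0.45 in Trbv12-1, Trbv12-2 and Trbv13-1 cells, beside -0.29 in Trbv29 cells. In Trbv12-2 cells 5 of 9 were lower and 3 higher, and in Trbv13-1 cells 5 of 10 were lower and 2 higher. The lower median there was thus not particular to Trbv29 cells. In the plus library the medians were -0.05, 0.09 and 0.05, beside -0.48. The differences between segments were not tested.

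Between the libraries, Trbv29 cells of the minus fraction were set beside those of the plus fraction. Of 5750 genes 967 were higher in the minus library (16.8%) and 1405 lower (24.4%), against 2.36% higher and 10.1% lower among 5346 genes in cells of other segments, which were far more numerous. Tnfrsf9 stood at 34.7 CPM in minus and 609.5 CPM in plus Trbv29 cells (log2 ratio -4.10) and at 59.98 and 419 CPM in other cells (-2.78). Of 12 terminally exhausted-like genes 10 were lower in minus Trbv29 cells (median -0.81), and in other cells 6 of 11 were lower (-0.66). Gzma was 3.58 higher on the log2 scale in minus Trbv29 cells, and its log2 ratio in other cells was -1.68. The difference between these ratios was not tested.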

How the data were processed

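CD8 T cells were measured with 10x 5′ single-cell libraries, 1 per fraction and tissue. Cell Ranger 3.0.2, Seurat 3.0 and the mm10 build are named in the submitters' processing notes, which record no cell filter here. The deposited values are in natural log units, the log of 1 plus a whole number for all 9837473 entries above 0 (relative tolerance 1e-12). Totals per cell lie in a limited range within a library. In cells of other segments they run from 3654 to 5670 in the tumour minus library and from 2949 to 4550 in the tumour plus library. The whole numbers are therefore taken as counts that the authors corrected for depth, a reading of the values, and no count model was used. Raw depth is unknown. The 19 barcodes shared between libraries (1 between the tumour libraries) were kept, and no doublet caller was run.

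Counts were summed per group without 108 receptor columns and scaled to CPM. Receptor genes among the cell type markers were scaled to the same non-receptor total. The 12 genes named in each direction were those past the limit in both libraries, ranked by the smaller ratio, leaving out receptor, immunoglobulin, mitochondrial, ribosomal, haemoglobin, Xist, Tsix and Y-linked genes and models without a gene name. Some items are not reported here. Members, lists and rules were chosen with earlier results of these data known. Intervals are exact Clopper-Pearson. The ratio script was tested on simulated data for genes at 100 CPM or more, without variation between cells. That test does not cover genes near the 20 CPM minimum. Sequences come from GENCODE M21, which matched all 22 Trbv and 68 Trav columns. Alternatives varied the pseudocount, filter, size limit, cell weight and cells entered. Python 3.11.15, numpy 2.4.6, scipy 1.17.1, Biopython 1.88 and matplotlib 3.10.9 were used.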

Additional observations from a re-analysis of the deposited data

Results flagged for a closer look

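Some differences between Trbv29 cells and cells of other segments had opposite signs in the tumour libraries. The difference between the libraries was not tested. Shares were listed if the intervals of both sides lay apart in either library, so the difference in the other library could be small. In the plus library Gzmk had a value in 18.4% of Trbv29 cells against 22.2% of other cells. There Gzma had a value in 6.63% against 8.71% and Klrg1 in 2.04% against 2.70%. Tnfrsf9 had a value in 9.84% against 16.3% in the minus library. The share of cells with a Gzmk value was 22.7 percentage points higher in Trbv29 cells of the minus library, and its difference was -3.82 points in the plus library, a gap of 26.5 points. For Gzma the differences were 23.0 and -2.07 points, a gap of 25.1 points, and for cells with both Gzma and Gzmk they were 24.0 and -0.82 points, a gap of 24.9 points. For Klrg1 the differences were 11.7 and -0.66 points, a gap of 12.4 points, while its level in the plus library was even at 9.65 against 9.54 CPM. For Tnfrsf9, the targeted gene, they were -6.49 and 11.9 points, a gap of -18.4 points.

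The proliferation genes had a median log2 ratio of 0.48 in the minus library, with 5 of 11 genes higher, and of -0.36 in the plus library, with 5 of 12 lower, a gap of 0.84. Of all measured genes 20.5% were higher in the minus library and 5.79% were lower in the plus library. Mcm3, a subunit of the replicative helicase, stood at 69.4 against 35.1 CPM (0.97) and at 27.6 against 50.8 CPM (-0.86). In the minus and plus libraries the proliferation medians were 0.40 and 0.56 in Trbv12-1 cells and -0.81 and -0.04 in Trbv12-2 cells. They were -0.08 and -0.31 in Trbv13-1 cells. Neither direction alone was thus particular to Trbv29 cells.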

How the results depend on the processing

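No paired analysis was possible because each fraction and tissue is 1 library and the labels carry no replicate numbers, so no replicate was left out. The depth behind the corrected counts is unknown, and the 61 and 196 Trbv29 cells limit the precision. A further restriction on the cells entered is not reported here. Leaving out cells by Trav value was chosen after seeing the data. The cause of the changes below was not tested unless the alternative itself uses fewer genes or cells.

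Without Trav8-1 and Trav6-4 cells the Trbv29 share of the plus library was 7.59%. With Trav values of at least 2 counts, 44.9% of Trbv29 cells with 1 Trav value used Trav8-1. Counts of higher genes in the minus library, the plus library and both were 2403, 1652 and 357 with no filter, 112, 36 and 1 at a minimum of 100 CPM, and 266, 32 and 4 at a size limit of 1. Counts of lower genes were 1554, 1407 and 234, then 34, 18 and 3, then 193, 35 and 1. A pseudocount of 10 CPM gave 203 higher and 167 lower genes in the plus library, and 27 and 20 in both. Cells with a Pdcd1 value gave 764 higher genes in the plus library and 137 in both, with 1424, 540 and 128 lower. Without the pairings 1372 genes were lower in the plus library and 208 in both. Values of at least 2 counts gave 48 genes higher in both.

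Without the pairings the medians of the plus library changed sign, to 0.22 for naive-like, -0.41 for terminally exhausted-like, -0.48 for inhibitory and -0.15 for cytotoxic genes. That of inhibitory receptors in the minus library changed to -0.12. The cells left out in the plus library were those already seen with low naive-like and high terminally exhausted-like genes. The change there is thus no separate result. In the minus library, cells with Pdcd1 (23 of Trbv29) gave medians of 0.16 for naive-like, -0.15 for terminally exhausted-like, -0.52 for inhibitory, -0.22 for cytotoxic and -0.061 for proliferation genes. Cells with a Trav value gave -0.27, -0.24, -0.26 and -0.018 for terminally exhausted-like, inhibitory, cytotoxic and proliferation genes. The terminally exhausted-like median was -0.057 at 100 CPM, and the inhibitory median -0.30 with values of at least 2 counts.

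Of the named genes in the minus library, Ccl1 had a log2 ratio of 0.14 in Cd8 cells without other markers. Zmiz2 had 0.0045 with values of at least 2 counts and 0.21 in Pdcd1 cells. Over named genes and settings 256 log2 ratios kept their direction and side of the limit, 14 fell under it and 3 changed sign. These genes were picked for passing the limit in these same cells. Settings that change only the filter leave each ratio as it was, so the tally supports nothing.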

Other observations

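Gm20400 (ENSMUSG00000092500.1), annotated as an antisense gene at chr6:142161493-142173796 on GRCm38, fell outside the rule for named genes and was picked after its values were seen. It had a value in 42.6% (30.04 to 55.9) of Trbv29 cells against 15.2% (12.5 to 18.3) of other cells in the minus library, and in 29.1% (22.8 to 36.0) against 9.40% (7.87 to 11.1) in the plus library. The spleen minus fraction, which the rule did not use, had 50.6% (39.4 to 61.8) against 22.2% (19.9 to 24.7). Among segments with at least 10 cells Trbv29 ranked second in the tumour libraries and in the spleen minus fraction, behind Trbv26 at 60%, 59.4% and 61.1%. The longest run of bases that the annotated Gm20400 transcript shared with the Trbv29 transcript was 8 on either strand, against up to 13 for other Trbv segments.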
